A study of Homo sapiens with 4 samples.

Results

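A stretch of the long arm of human chromosome 20, in band 20q13, holds SNAI1, CEBPB, PTPN1 and PARD6B in this order. It was examined for sites bound by TEAD4 in MKN28 and SNU216, 2 gastric cancer cell lines. The members were all TEAD4 peaks on chromosome 20 with a midpoint from 48500000 to 50200000 (build hg19), a window of 1.7 Mb that was chosen on measured values, because it is dense in peaks. The window held 102 of the 39477 MKN28 peaks and 33 of the 11540 SNU216 peaks, or 135 of 51017 in all. Each line was represented by 1 library immunoprecipitated with a TEAD4 antibody and 1 input library without antibody, both from cells fixed with formaldehyde. The labels name no treatment and no genotype change, and each group is 1 cancer cell line. There were no replicates to measure the spread of either line, and intervals below cover counting error only. The lists hold positions and a score per peak, without read counts, and sequencing depth is unknown. The score is the one that the authors' peak caller, MACS, gave each peak. A higher score means stronger evidence for enrichment over the input, its scale is not stated, and a percentile below is the percent of the list at or under a score. The gene starts, in hg19, are 48599513 for SNAI1, 48807120 for CEBPB, 49126858 for PTPN1 and 49348081 for PARD6B. The label "gastric cancer cell" could not be checked against marker genes, because peak lists carry no expression values.

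TEAD4 is a DNA-binding protein of the TEAD family. It recruits the co-activators YAP and TAZ, which the Hippo kinases keep out of the nucleus, and the complex often acts from sites far from gene starts, together with AP-1 factors. SNAI1 (Snail) is a zinc finger repressor of E-cadherin and a driver of epithelial-mesenchymal transition. CEBPB encodes C/EBP-beta, a leucine zipper transcription factor of inflammation, differentiation and stress responses. PTPN1 encodes PTP1B, a tyrosine phosphatase of the endoplasmic reticulum surface that dephosphorylates the insulin receptor and JAK2. PARD6B encodes a PAR6 scaffold protein, which joins atypical protein kinase C, CDC42 and PAR3 in the complex that sets apical-basal polarity of epithelial cells.

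The PTPN1 and CEBPB promoters are shown because no promoter sequence was at hand for SNAI1 and PARD6B. An MKN28 peak covered the PTPN1 start, and neither line had a peak over the start of CEBPB, SNAI1 or PARD6B. Both sequences are from RefSeq, build GRCh38.p14, plus strand, the 250 bases before the annotated start, with the 50 bases next to the start in capitals. They lie at chr20:50510133-50510382 for PTPN1 and chr20:50190333-50190582 for CEBPB in that build, and these positions cannot be set against the hg19 peak positions.
PTPN1: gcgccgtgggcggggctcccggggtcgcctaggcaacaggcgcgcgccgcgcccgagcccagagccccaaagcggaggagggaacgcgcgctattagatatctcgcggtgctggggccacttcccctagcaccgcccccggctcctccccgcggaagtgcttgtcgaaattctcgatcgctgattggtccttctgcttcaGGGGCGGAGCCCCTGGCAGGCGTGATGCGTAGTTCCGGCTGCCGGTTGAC
CEBPB: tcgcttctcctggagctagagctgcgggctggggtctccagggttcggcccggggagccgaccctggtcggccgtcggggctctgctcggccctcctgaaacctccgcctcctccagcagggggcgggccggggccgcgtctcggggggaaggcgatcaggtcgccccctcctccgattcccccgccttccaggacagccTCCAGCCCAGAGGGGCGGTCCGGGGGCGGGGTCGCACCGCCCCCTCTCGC
The RefSeq promoter table held 2 of the 4 genes. Neither the PTPN1 promoter nor either of the entries for CEBPB, read as 300 bases up to 50 past the start, held GGAATG (the core letters of the TEAD motif, CATTCC on the other strand) or TGANTCA (AP-1, both strands). The letters were found in 14.0% and 7.71% of all 35116 promoters of this length. The PTPN1 promoter was 68.7% G and C and the CEBPB promoter 77% over those 300 bases, against a median of 58.7% over all promoters. An absent match says only that the letters are not in this window of sequence.

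Peaks were crowded in the window in both lines. MKN28 had 60 peaks per Mb there, against 19.4 on the rest of chromosome 20 and 13.4 over chromosomes 1 to 22 and X. SNU216 had 19.4 per Mb, against 7.997 and 3.93. In the stretches of equal length on either side, MKN28 had 53 peaks before and 30 after the window, and SNU216 had 10 and 6. Density chose the window, so these counts describe it and show nothing further. The rule's limits fell between peaks of both lists. The MKN28 peaks next to the lower limit lay 17.5 kb inside (score 79.4) and 11.2 kb outside it (198), and those next to the upper limit 49.7 kb inside (179) and 2.70 kb outside (72.4). The SNU216 peaks lay 5.03 kb inside (58.6) and 115 kb outside the lower limit (72.2), and 49.96 kb inside (74.2) and 169 kb outside the upper limit (61.2).

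Within the window, the peaks of both lines were most crowded from PTPN1 to PARD6B. This interval of 221 kb, which also holds the cell polarization regulator gene RIPOR3 as the only protein-coding neighbour between them, had 24 MKN28 and 13 SNU216 peaks, or 10.8 and 5.88 per 100 kb. The interval from CEBPB to PTPN1, 320 kb long and without a protein-coding gene in the RefSeq order, had 30 MKN28 and 9 SNU216 peaks (9.38 and 2.81 per 100 kb). RefSeq lists 7 long non-coding RNA genes there, PELATON and LINC01270 among them. From SNAI1 to CEBPB, where UBE2V1 and PEDS1 lie, 14 and 3 peaks were called (6.74 and 1.45 per 100 kb). The 99.5 kb before SNAI1 had 4 and 1. The long last part, from PARD6B to the end of the window, had 30 and 7 peaks, only 3.52 and 0.822 per 100 kb. The PTPN1 to PARD6B interval thus took 39.4% of the SNU216 peaks of the window (95% Clopper-Pearson interval 22.9 to 57.9) and 23.5% of the MKN28 peaks (15.7 to 33.0). These intervals overlap, and a difference between the lines in this share was not shown.

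**Figure D1:**
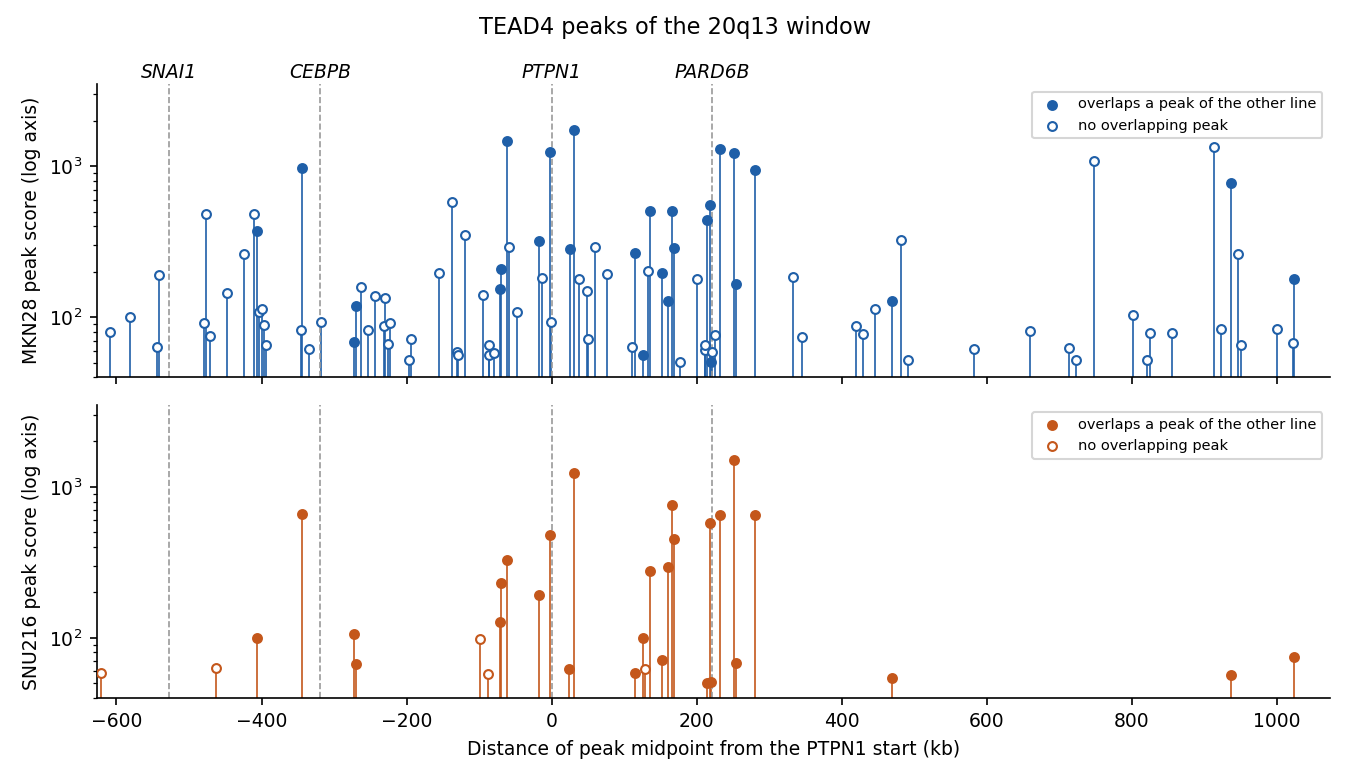
TEAD4 peaks of the window, MKN28 above and SNU216 below, by distance of the peak midpoint from the PTPN1 start in kb (horizontal axis) and by the authors' score (vertical log axis). Filled points overlap a peak of the other line, open points do not, and dashed lines mark the 4 gene starts. The highest peak of each line stands 30.9 kb after the PTPN1 start (MKN28) or 30.2 kb after the PARD6B start (SNU216), and more than 60 kb past the PARD6B start there are 25 MKN28 and 3 SNU216 peaks.

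**Figure D2:**
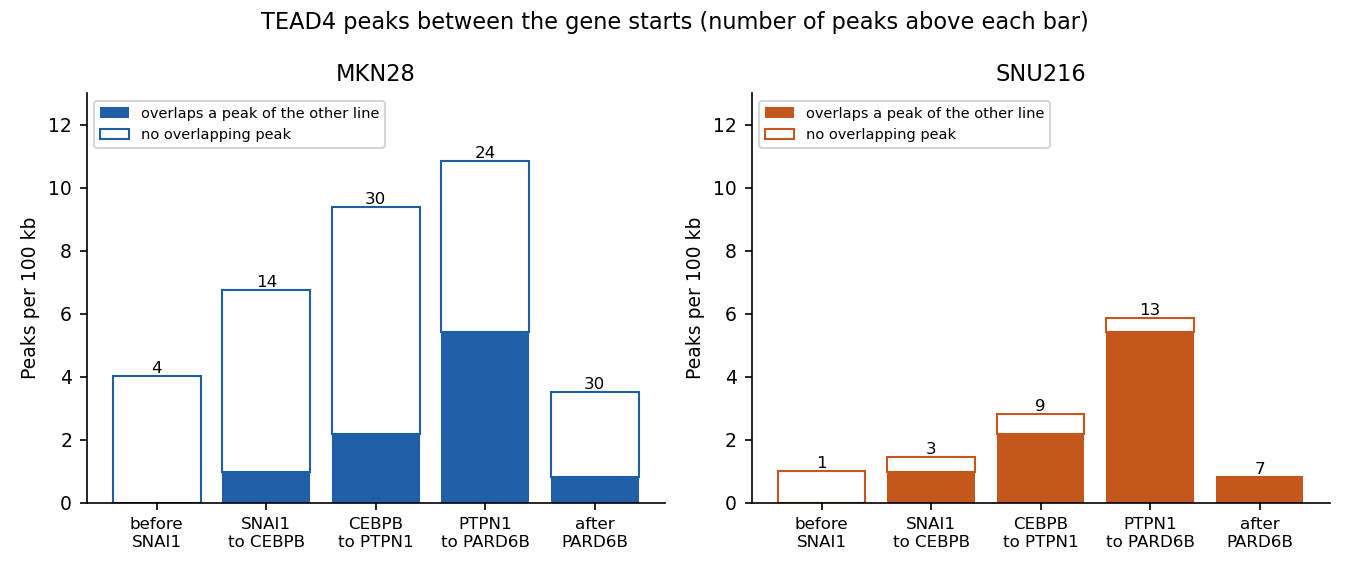
Peaks per 100 kb in the 5 intervals set by the gene starts, with the number of peaks above each bar. The filled part of a bar overlaps a peak of the other line. Both lines reach their highest density from PTPN1 to PARD6B, at 10.8 peaks per 100 kb in MKN28 and 5.88 in SNU216.

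SNAI1 had the fewest peaks around its start. The nearest MKN28 peak lay 14.1 kb before it (chromosome 20, 48585126 to 48585784, score 191). A weaker peak lay 16.8 kb before it (score 63.3), and on the other side the first MKN28 peak was 48.4 kb away (91.5), followed by one at 51.0 kb with a score of 480. No SNU216 peak was called within 50 kb of the SNAI1 start. The nearest one was 64.3 kb after it, with a score of 62.9, and it did not overlap an MKN28 peak. None of the 3 MKN28 peaks within 50 kb of SNAI1 overlapped an SNU216 peak. Such overlap was the minority case for MKN28 peaks, at 27.5% in the window and 17.1% in the whole list. A stretch without a peak had no signal above the authors' threshold in that library, and TEAD4 may still bind there.

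CEBPB had 1 strong site, and it was common to both lines. It lay 24.6 kb before the CEBPB start in MKN28 (48781932 to 48783180, score 982) and 24.5 kb before it in SNU216 (48782290 to 48782985, score 657). The SNU216 peak was contained in the MKN28 peak, and the midpoints were 81.5 bp apart. These scores put it at percentile 97.9 of the MKN28 list and 97.7 of the SNU216 list. Closer to the gene, MKN28 had weak peaks 14.2 kb before the start (score 61.5) and 2.45 kb after it (93.5), and SNU216 had none within 10 kb. A pair of shared sites lay 46.9 kb after the CEBPB start, with scores of 68.7 in MKN28 and 105 in SNU216, and 49.4 kb after it in MKN28 (119) and 49.6 kb in SNU216 (66.7). Of the 6 MKN28 peaks within 50 kb of CEBPB, 3 overlapped an SNU216 peak, and these were all 3 SNU216 peaks in that range. Over the whole window, 27.5% of MKN28 and 84.8% of SNU216 peaks overlapped a peak of the other line. In the whole lists 17.1% and 59.3% did.

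PTPN1 was the only gene of the 4 with a peak over its start. This peak was found in MKN28 alone, as were 93.1% of all MKN28 peaks with a score under 100 (93.5% in the window). It ran from 683 bp before to 93 bp after the start (49126175 to 49126951) and had a score of 93.5, at percentile 46.9 of its list. It thus spans the same relative positions as the PTPN1 promoter printed above, with the limit that the spacing from the CEBPB to the PTPN1 start differs by 62 bp between the start positions used here and RefSeq. The stronger site was next to it. A peak 2.04 kb before the start scored 1243 in MKN28 (49124428 to 49125218), and its SNU216 partner 1.91 kb before the start scored 483 (49124664 to 49125225). The highest MKN28 peak of the window, with a score of 1736, lay 30.9 kb after the PTPN1 start (49157075 to 49158501). It ranked 159 in the whole MKN28 list. Its SNU216 partner, 30.8 kb after the start (49157253 to 49158086), scored 1240 and ranked 39 in the SNU216 list. Between these sites, MKN28 had a site 24.8 kb after the start with a score of 283, where SNU216 scored 61.7. Before the gene, a shared site 17.2 kb from the start scored 318 in MKN28 and 192 in SNU216 with identical midpoints. All 4 SNU216 peaks within 50 kb of the PTPN1 start overlapped 1 of the 10 MKN28 peaks in that range. An MKN28 peak was overlapped by 84.8% of SNU216 peaks in the whole window and 59.3% in the whole list.

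A group of 3 shared sites stood farther from PTPN1, in the interval toward CEBPB, which has no protein-coding gene in the RefSeq order. The strongest lay 61.3 kb before the PTPN1 start in MKN28 (49065191 to 49065834, score 1469) and was the second highest MKN28 peak of the window. Its SNU216 partner (49065211 to 49065685) scored 327, at percentile 91.1 of its list, against 99.3 in MKN28. The neighbouring pair, 69.6 kb before the start, had scores of 208 in MKN28 and 229 in SNU216. The third, 71.1 kb before the start, scored 154 and 128. With peaks at most 10 kb apart taken as 1 run, these sites belonged to a run of 8 MKN28 peaks over 36.9 kb (49031302 to 49068249), of which 3 overlapped an SNU216 peak. No MKN28 run of the window held more peaks. The other run of 8 lay across the PARD6B start (49337948 to 49358808, 20.9 kb), with 4 shared. Of all MKN28 peaks, 27.5% were shared in the window and 17.1% in the whole list.

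PARD6B had the most peaks around its start. Within 10 kb there were 7 MKN28 and 3 SNU216 peaks, and within 50 kb there were 12 and 6. All 6 were shared, where 84.8% of SNU216 peaks were in the whole window and 59.3% in the whole list. The peaks nearest to the start were weak. MKN28 had a peak 0.482 kb before it, with a score of 59.2, whose right edge lay 156 bp before the start. The pair next to it, 1.12 kb before the start in MKN28 (score 50.6) and 1.31 kb in SNU216 (51.1), was close to the lowest score of either list, 50. A strong shared site followed 2.23 kb before the start in MKN28 (49345341 to 49346361, score 553) and 2.22 kb in SNU216 (49345358 to 49346369, score 574). It was at percentile 93.3 of the MKN28 list and 96.9 of the SNU216 list. A site 6.57 kb before the start had unlike scores, 442 in MKN28 and 50.2 in SNU216.

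Beyond the PARD6B start came 3 of the strongest shared sites of the window. The first, 10.5 kb after the start in MKN28 (49358265 to 49358808) and 10.6 kb in SNU216 (49358472 to 49358849), scored 1297 and 652. It was narrow for its strength, at 544 and 378 bp, or 0.643 and 0.593 times the median width at that score in its own list. The second, 30.2 kb after the start (49377719 to 49378875 in MKN28, 49377861 to 49378895 in SNU216), scored 1233 and 1498. The SNU216 value was the highest of the window in that line and ranked 25 in its whole list. The third, 59.4 kb after the start (49407172 to 49407868 and 49407228 to 49407688), scored 944 and 656, at percentile 97.7 of both lists.

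**Figure D3:**
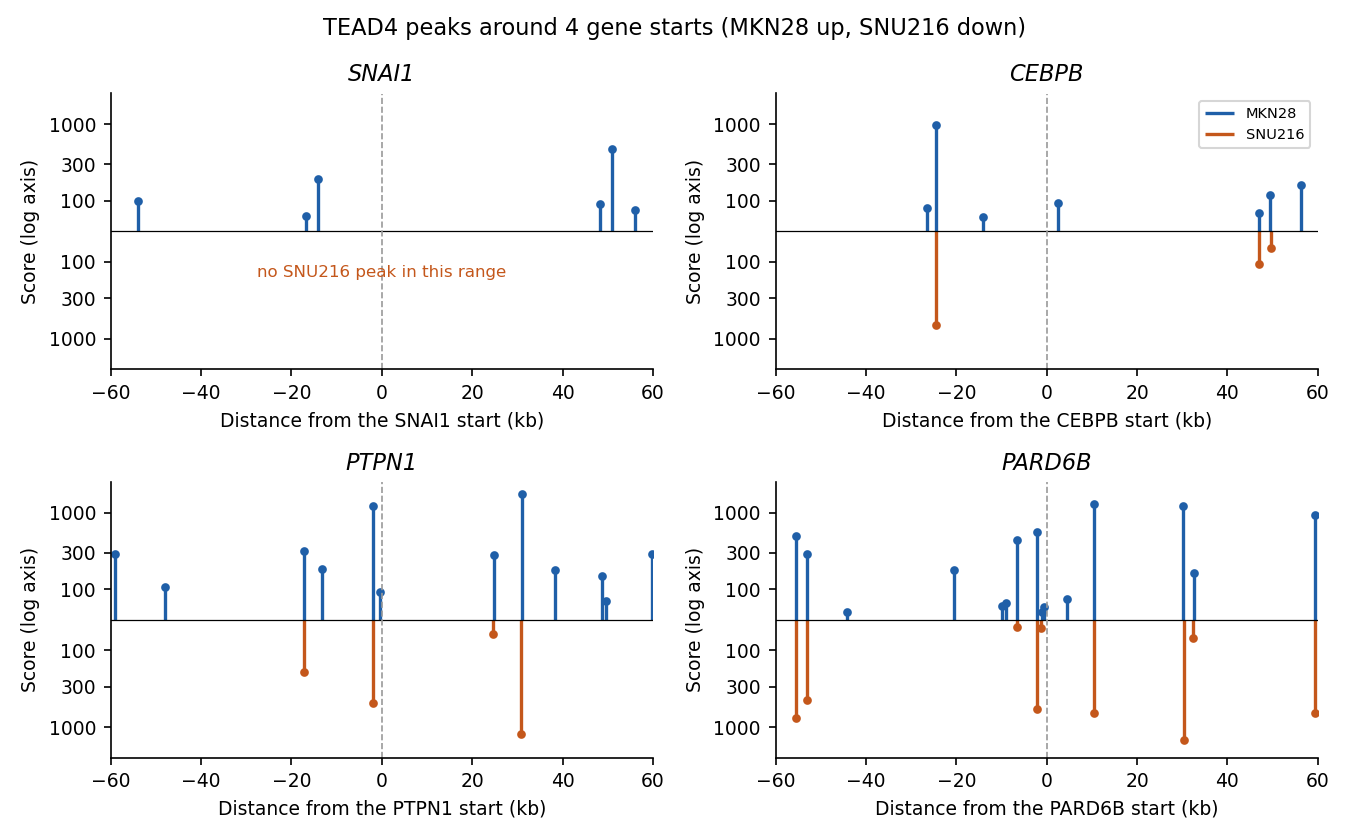
TEAD4 peaks within 60 kb of each gene start, MKN28 upward and SNU216 downward, by distance of the midpoint from the start in kb and by score on a log axis. SNAI1 has no SNU216 peak in this range, CEBPB has 1 tall shared site 24.6 kb before its start in MKN28, and PTPN1 and PARD6B have tall shared sites on both sides.

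Sites common to both lines made up most of the SNU216 peaks of the window. In SNU216, 28 of 33 peaks shared at least 1 bp with an MKN28 peak (84.8%, 68.1 to 94.9). This compares with 59.3% of the whole SNU216 list and 49.5% on the rest of chromosome 20. Of the 102 MKN28 peaks, 28 overlapped an SNU216 peak (27.5%, 19.1 to 37.2), against 17.1% of the whole MKN28 list and 20.4% on the rest of chromosome 20. Both intervals lay above the value of their whole list, but the MKN28 interval included the value of the rest of chromosome 20. The intervals also treat neighbouring peaks as independent, which they are not. With midpoints within 200 bp as the rule, both intervals included the list value (SNU216 69.7%, 51.3 to 84.4, against 54.6%; MKN28 22.5%, 14.9 to 31.9, against 16.0%). MKN28 peaks covered 4.29% of the window, against 0.756% of chromosomes 1 to 22 and X between their first and last peaks. The part of this density in the overlap was not tested. Read by score, the MKN28 share was 66.7% (43.0 to 85.4) of 21 peaks at 300 or more, against 43.9% in the list. At scores of 100 to 300 it was 31.4% of 35 peaks (16.9 to 49.3), against 19.7%, and under 100 it was 6.52% of 46 peaks (1.37 to 17.9), against 6.92%. All 10 SNU216 peaks of 300 or more and all 6 from 100 to 300 overlapped an MKN28 peak, which allows shares down to 69.2% and 54.1%, against 91.1% and 75.4% in the list. Under 100, 12 of 17 did (70.6%, 44.04 to 89.7), against 44.8%. In each of the 6 score groups, the interval included the value of the whole list.

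**Figure D4:**
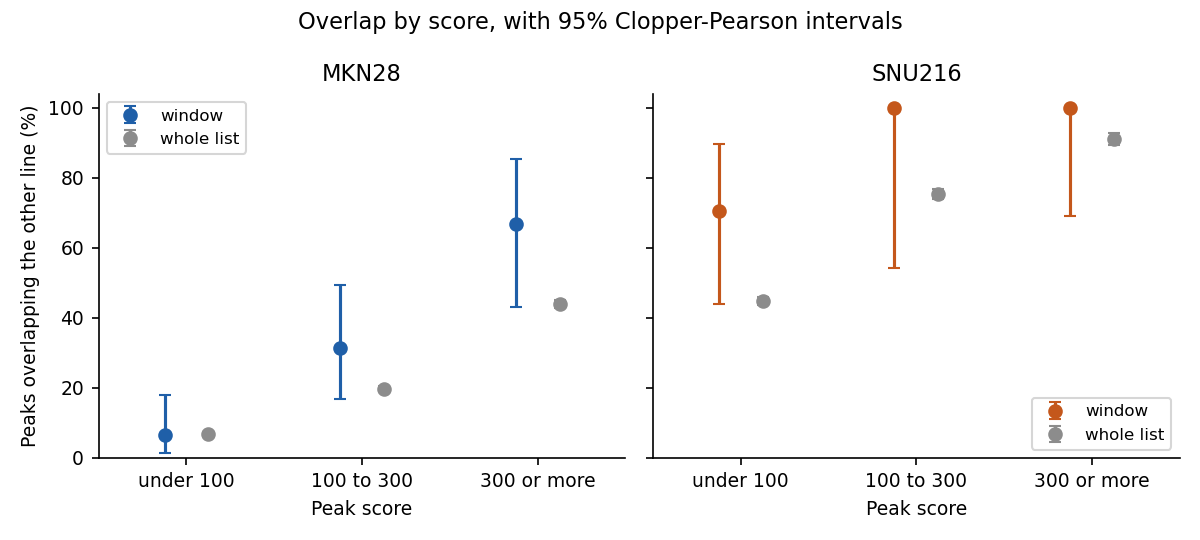
Share of peaks that overlap a peak of the other line (vertical axis, percent) in 3 score groups (horizontal axis), for the window in colour and the whole list in grey, with 95% Clopper-Pearson intervals. The window points stand above the grey points in 5 of the 6 groups, and the window intervals include the grey value in all 6.

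Very high scores made up a larger share of the MKN28 peaks in the window than in the list. In MKN28, 7 of the 102 peaks scored 1000 or more (6.86%, 2.80 to 13.6), against 2.02% of the list, as did 2 of the 33 in SNU216 (6.06%, 0.743 to 20.2), against 0.745%. The MKN28 interval lay above the value of its list, and the SNU216 interval just included it. Scores of 100 or more were held by 56 MKN28 peaks (54.9%, 44.7 to 64.8; 49.9% in the list) and 16 SNU216 peaks (48.5%, 30.8 to 66.5; 42.2% in the list), and both intervals included the share of the list. The median score was 113 in MKN28 (binomial interval 87.9 to 160), against 99.8 in the list, and 99.3 in SNU216 (66.7 to 295), against 84.7. Both intervals include the list's median. Peaks of the window had a median width of 646 bp in MKN28 (606 to 696), against 525 bp, and 562 bp in SNU216 (497 to 730), against 408 bp. Compared with similarly scored peaks of their own list, their width was 1.21-fold in MKN28 and 1.33-fold in SNU216. The rest of chromosome 20 had the same tendency, at 1.10-fold and 1.24-fold. Within the window, the PTPN1 to PARD6B interval had the widest peaks for their score in both lines, at 1.38 times in MKN28 and 1.59 in SNU216. Why peaks were wide there was not tested.

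Over the 28 pairs of partner peaks the midpoints were a median of 63.2 bp apart, against 55 bp over all 6841 pairs of the series. Of the 28 pairs, 23 were within 200 bp (82.1%), against 92.2% of all pairs. The MKN28 score was a median of 1.72 times the SNU216 score, against 1.77 over all pairs. Such a ratio sets scores of separately called libraries side by side and moves with the depth of each, so it is read only against the same ratio in the list. Across the 28 pairs the scores had a Spearman rho of 0.65, against 0.38 over the series. The pairs share their libraries and part of them are neighbours, so this is a description.

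SNU216 had the higher score in 9 of the 28 pairs (32.1%, against 24.7% of all pairs), and 6 of the 9 lay between PTPN1 and PARD6B, where there were 12 pairs. The other 16 pairs held 3. Some of the 9 were near ties, such as 574 in SNU216 against 553 in MKN28. Because scores move with depth, percentiles in each line's own list were also compared. By percentile, SNU216 stood higher in 11 of the 28 pairs. These were 7 of the 12 between PTPN1 and PARD6B and 4 of the other 16. This split by interval was not tested. A site 55.4 kb before the PARD6B start in MKN28 (49292302 to 49293001) scored 502, and its SNU216 partner (49292250 to 49292997) scored 757, the third highest SNU216 peak of the window. The sites beside it, 52.9 and 60.8 kb before the start, scored 289 and 129 in MKN28 and 449 and 295 in SNU216. Together with a site 68.3 kb before the start (197 and 70.8), they formed the longest SNU216 run at a spacing of at most 10 kb. It held 4 peaks over 16.0 kb (49279643 to 49295641). All of them were shared, against 84.8% of SNU216 peaks in the window and 59.3% in the whole list. A site 95.3 kb before the start scored 56.5 in MKN28 and 99.1 in SNU216. The opposite order was found 106 kb before the PARD6B start, with 267 in MKN28 and 58.8 in SNU216, and at the site 6.57 kb before it that is given above.

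**Figure D5:**
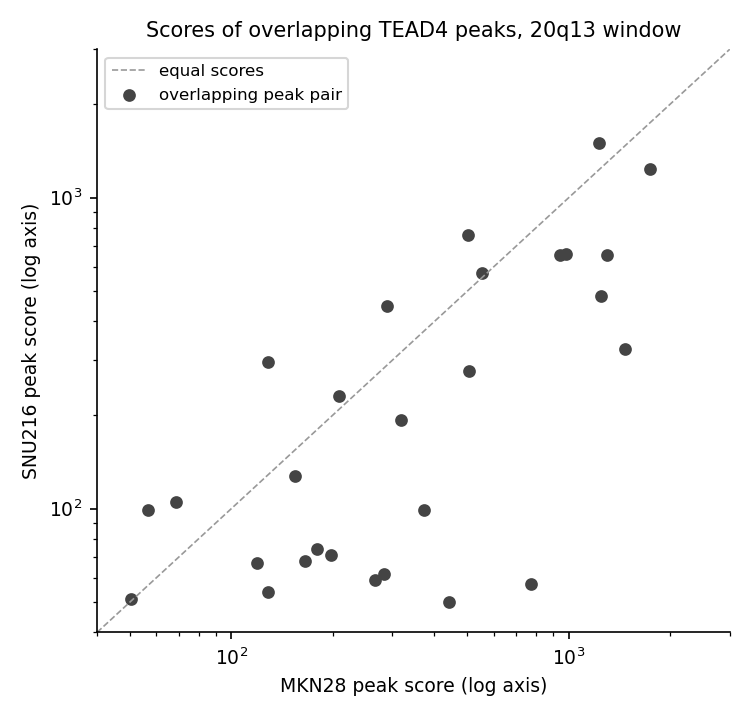
Scores of the 28 overlapping peak pairs of the window, MKN28 on the horizontal and SNU216 on the vertical log axis; the dashed line marks equal scores. Of the 28 points, 9 stand above the line, and a lower group has SNU216 scores under 100 at MKN28 scores of up to 771.

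In the right part of the window, away from the 4 genes, both lines had fewer peaks per Mb than in the window as a whole. More than 60 kb past the PARD6B start, a limit set after the values were seen, MKN28 had 25 peaks with scores from 51.7 to 1342, and 10 of them reached 100. This is 31.6 per Mb, against 60 in the whole window, 19.4 on the rest of chromosome 20 and 13.4 over the list. The stretches of equal length before and after the window had 31.2 and 17.6. SNU216 had 3, with scores of 54.2, 57.1 and 74.2. This is 3.79 per Mb, against 19.4 in the whole window, 7.997 on the rest of chromosome 20 and 3.93 over its list. The stretches before and after the window had 5.88 and 3.53. Density chose the window, so these values are descriptions. The largest gap between SNU216 peaks, 467 kb, lay here (49597107 to 50063166). Within the first 60 kb, by contrast, there were 5 MKN28 and 4 SNU216 peaks, or 83.3 and 66.7 per Mb. All 4 were shared, as were the 3 SNU216 peaks farther on. Of all SNU216 peaks, 84.8% were shared in the window and 59.3% in the whole list. The next protein-coding genes after PARD6B in the RefSeq order include BCAS4, ADNP, DPM1, MOCS3, KCNG1 and NFATC2. NFATC2 is a transcription factor of calcium signalling. Peaks were not assigned to these genes. The strongest MKN28 peak without an SNU216 partner, at 50039961 to 50041093, scored 1342 and ranked 368 in the MKN28 list. The nearest SNU216 peak was 22.9 kb away. The next, at 49874733 to 49875657, scored 1080, and the nearest SNU216 peak was 188 kb away. A wide MKN28 peak at 50062904 to 50064561 (1658 bp, score 771) had an SNU216 partner of 437 bp with a score of 57.1, a ratio of 13.5, the largest of the 28 pairs.

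Of the 21 MKN28 peaks of the window at 300 or more, 7 had no SNU216 partner (33.3%), against 56.1% of such peaks in the whole list, a value inside the interval given above when read as the overlapping share. Besides the pair of sites just described they scored from 326 to 578. One of 578 lay in the CEBPB to PTPN1 interval (48988359 to 48989810), 138 kb before the PTPN1 start, and another of 350 lay 120 kb before it. Between SNAI1 and CEBPB, sites at 48650113 to 48650922 and 48715535 to 48716992 had scores of 480 and 479.9. The second of these was 1458 bp wide, 2.11 times the median width for its score, and an SNU216 peak of 99.3 lay 4.17 kb away as the partner of the next MKN28 peak. The 5 SNU216 peaks without an MKN28 partner were all weak, with scores of 57.3 to 98.8. In 3 of them the nearest MKN28 midpoint was 0.633 to 2.90 kb away, and in the other two it was 8.31 and 12.5 kb away.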

How the data were processed

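TEAD4 peaks of MKN28 and SNU216 were analysed, 1 TEAD4 library per line; the 2 input libraries enter only through the authors' peak calling. Per the submitters' processing notes, the authors used CASAVA 1.8, Bowtie2 2.0.0, MACS and build hg19. The authors deposited 1 list per TEAD4 library, with coordinates and 1 MACS score for every peak; the name of a list pairs it with that line's input, and nothing was pooled. The scale of the score, MACS settings, duplicate handling and depth are not stated by any source used here. Such a score can rise with depth, so scores were ranked within 1 list.

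Positions were converted to 1-based hg19 coordinates. The gene starts are those given with the definition of the window, and distances are from the start to the peak midpoint. The window and its genes were chosen with earlier results of these data known. Overlap meant at least 1 shared bp, and a peak with several partners was paired with the one of longest overlap. Shares carry exact 95% Clopper-Pearson intervals and medians carry binomial order-statistic intervals; both cover counting error only. Width for score is a peak's width divided by the median width in its group, with 50 groups by score rank. No test was run, since each line has 1 library. Peaks named are the nearest to each start, the 5 highest of each list, the highest of each interval, the 3 pairs highest in both lists and the longest runs. Others named were chosen after their values were seen. RefSeq (GRCh38.p14) gave promoter sequences and gene order only. No hg19 genome was used, so peak sequences, and peaks at other genes of the same pathways, were not analysed here. The overlap code was checked on simulated data. Scripts ran under Python 3.11.15 with scipy 1.17.1, numpy 2.4.6 and pandas 2.3.3.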

Additional observations from a re-analysis of the deposited data

How the results depend on the processing

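When peaks under a score of 100 were dropped, 56 MKN28 and 16 SNU216 peaks stayed in the window, the median MKN28 width was 770 bp, and 0% of the SNU216 peaks lay before SNAI1. With the MKN28 list cut to the length of the SNU216 list, the window held 39 MKN28 peaks with a median score of 326 and a median width of 796 bp. Of these, 51.3% overlapped an SNU216 peak (35.2% over the whole cut list), and 60.6% of SNU216 peaks overlapped them (36.1% over the whole list). With midpoints at most 20 kb apart, the longest SNU216 run held 8 peaks. A cut by score lowers the number of peaks by construction, and a wider spacing can only lengthen runs. The SNU216 share fell from 84.8% to 60.6% with the cut MKN28 list, so some MKN28 partners ranked below the cut. Over the whole list it fell from 59.3% to 36.1%. The other 32 of 42 recomputed values stayed within their interval or within 1.5 times their count. Of SNU216 peaks, the overlapping share was 72.7% with 50% of both peaks shared (54.5 to 86.7) and 69.7% with midpoints within 200 bp (51.3 to 84.4), where the whole list gave 48.2% and 54.6%. For MKN28 the values were 23.5% (15.7 to 33.0) and 22.5% (14.9 to 31.9), against 14.1% and 16.0%. With edges less than 1 kb apart, a setting added after seeing the data, they were 87.9% and 31.4%, against 62.4% and 19.2%. At a score of at least 100 they were 93.8% (69.8 to 99.8) and 26.8% (15.8 to 40.3), against 68.7% and 16.8%. The interval thus included the list value for both lines at 200 bp, and for MKN28 also at a score of at least 100 and with the cut list (34.8 to 67.6, against 35.2%). In 1 of 24 counts near a gene start, measuring from the peak's edge made a change: 2 MKN28 peaks, not 1, lay within 1 kb of PARD6B. Depth is unknown, which limits what can be said of sites called in a single line. No replicate could be left out. No paired analysis was possible because replicates are lacking.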

Other observations

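Many peaks of the window stood in small groups. At a spacing of at most 10 kb, 52 of the 102 MKN28 peaks were in 11 runs of 3 or more, and 13 of the 33 SNU216 peaks in 4 such runs. Of the 11 MKN28 runs, 8 held a peak shared with SNU216, and 19 of the 52 peaks in runs were shared (36.5%, against 27.5% in the window, which includes them). The 3 runs with no shared peak held 11 peaks. How many runs would hold a shared peak with sharing spread evenly over the window was not computed, so these counts are descriptions. Between SNAI1 and CEBPB, a run of 6 MKN28 peaks over 17.2 kb (chromosome 20, 48715535 to 48732735) had scores from 65.5 to 479.9 and 1 SNU216 partner. Past CEBPB, a run of 4 over 8.45 kb (48895250 to 48903695, scores 65.9 to 133) had none. A run of 4 over 19.0 kb (48988359 to 49007396, scores 55.8 to 578) had none either. Another 3, between SNAI1 and CEBPB, lay over 8.14 kb (48647633 to 48655771, scores 75.2 to 480), and had none. Between PTPN1 and PARD6B, 4 of the 5 peaks of a run over 24.7 kb (49279437 to 49304101) had a partner. All 4 SNU216 runs lay between CEBPB and PARD6B, and 12 of their 13 peaks had an MKN28 partner (92.3%). This was close to the 84.8% of all SNU216 peaks of the window, where the whole list had 59.3%.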
